A study of Mus musculus with 38 samples.

Results

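The cytosolic ribosomal protein genes are the genes for the proteins of the 60S and 40S subunits of the ribosome that translates nuclear-encoded mRNA. They were chosen by symbol, as all genes whose name starts with Rpl or Rps followed by a digit or by p, and Rpsa, leaving out the Rps6k kinases and copies marked -ps. The rule found 87 genes among the 21954 genes of the table. Of these, 43 encode large-subunit proteins, 31 small-subunit proteins, 3 the acidic stalk (Rplp0, Rplp1 and Rplp2) and 9 paralogs of another member, and 1, Rps19bp1, encodes a binding protein of Rps19 that is not part of the ribosome. A total of 84 entered the tests. Rpl10l, Rpl39l and Rpl6l did not, with 9, 32 and 4.03 expected counts over all libraries.

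The study measured liver mRNA of female wild-type C57BL/6 mice by polyA-selected RNA-seq in 38 libraries. Calorie-restricted (CR), fasted (F) and ad libitum fed (AL) mice were sampled at 6, 14 and 22 h, and CR and AL mice also at 0 h. CR mice that missed a meal (CRmm) and CR mice that were fed (CRfed) were sampled at circadian time ZT18. Groups held 3 libraries, except for 2 in CR at 0 h, 2 in AL at 6 h and 4 in CR at 22 h. The labels do not give the event from which the hours count, nor say that the replicates were separate animals, so p-values measure the spread between these samples. Labelled ages run from 5 to 44 months and rise from each library to the next in the order of the samples. The labels do not explain this order, so whether they give the true ages of the animals is uncertain. No library shares its age with another, and each group has its own range. At 14 h the ages are 23 to 25 months in CR, 26 to 28 in F and 20 to 22 in AL. Labelled age and group therefore cannot be told apart.

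A ribosome holds a single copy of nearly every one of its proteins, and cells make these proteins in matched amounts and degrade what is left over. The mRNAs carry a terminal oligopyrimidine (TOP) tract, a cytosine followed by a run of pyrimidines at the very start, through which LARP1 and the nutrient-sensing kinase complex mTORC1 switch their translation. In liver, food intake and fasting are known to change ribosome content and the translation of TOP mRNAs. An mRNA level, which is what was measured here, does not show how much of the mRNA was translated.

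The start sequences are shown because the TOP tract is a known feature of ribosomal protein mRNAs. The genes themselves were chosen by symbol and not by the tract. Each line gives 30 bases, in the sense of the mRNA, beginning 10 bases before a start annotated by RefSeq (GRCm38.p6), with the tract in capitals. The lines belong to Rpl28 (chr7:4792955-4792984, plus strand), Rpl27a (chr7:109519185-109519214, plus strand), Rpl39 (chrX:37085203-37085232, minus strand), Rplp2 (chr7:141447641-141447670, plus strand) and Rps6 (chr4:86857348-86857377, minus strand), and to 2 genes without a tract in the window searched, Rplp0 (chr5:115559457-115559486, plus strand) and Rpl11 (chr4:136053374-136053403, minus strand).
Rpl28: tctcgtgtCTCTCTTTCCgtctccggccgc
Rpl27a: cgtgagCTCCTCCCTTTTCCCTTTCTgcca
Rpl39: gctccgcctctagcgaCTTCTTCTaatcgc
Rplp2: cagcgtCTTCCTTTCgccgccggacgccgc
Rps6: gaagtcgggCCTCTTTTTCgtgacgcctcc
Rplp0: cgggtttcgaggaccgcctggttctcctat
Rpl11: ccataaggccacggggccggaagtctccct
The search took a C followed by at least 4 bases that were each C or T, beginning within 10 bases of the annotated start, on the mRNA-sense strand only. Of the 66 ribosomal protein genes with a promoter entry, 40 held such a tract (60.6%). The share was 34.4% of all genes with an entry and 44.9% of the genes for mitochondrial ribosomal proteins. The printed genes are examples, and whether the tract goes with the values below was not tested. Among genes not printed, Rps26 has a tract and did not pass the test of F against AL at 14 h. Rpsa and Rpl10 have none in the window and fell. Where the annotated start is not the one used in liver, a tract can lie outside the window. In the printed lines of Rplp0 and Rpl11, such a run begins further downstream, past the window. These genes are therefore not shown to lack a tract.

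Library totals ran between 17131292 and 30152277 expected counts, and no library repeated another. A total of 6 libraries stood apart from their group. AL at 0 h replicate 2 and AL at 22 h replicate 2 had clock genes that went against their labelled time, and AL at 0 h replicate 3, CR at 6 h replicate 3, CR at 14 h replicate 3 and CR at 22 h replicate 3 clustered with another diet or alone. Hepatocyte markers were high in all groups. In CPM (expected counts scaled by library size), 5 markers summed to between 111779 and 146878 CPM in CR at 14 h, between 80013 and 97646 CPM in F and between 119753 and 128280 CPM in AL. The single markers did not all follow the sum. Of the 5, 2 were called higher and 1 lower in F than in AL at 14 h (median log2 fold change -0.32), against 11.8 and 12.7% of all genes. In bulk tissue, fewer cells of a type and less RNA per cell cannot be told apart.

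Ribosomal protein mRNAs were abundant. On the authors' rescaled TPM scale, which divides by transcript length, the median member averaged 452.5, and the highest means were those of Rps2 (1255), Rps26 (976) and Rplp1 (967). The lowest were those of the 3 untested paralogs. Together the 87 genes took between 3.23 and 6.39% of all rescaled TPM in the 3 CR libraries at 14 h, between 1.99 and 2.43% in the F libraries and between 2.81 and 5.16% in the AL libraries. The F libraries at 14 h thus lay below all CR and AL libraries of that time on this scale. The median log2 ratio of F over AL at 14 h was -1.25 on it, against -0.03 over all genes. Dividing by length does not take out a length trend that differs between libraries, which is described below.

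As a share of expected counts, the genes took 1.27, 1.32 and 2.84% in the CR libraries at 14 h, 0.995, 0.824 and 0.795% in the F libraries and 1.76, 1.15 and 2.29% in the AL libraries. Group means were 1.81 ± 0.894% in CR, 0.871 ± 0.108% in F and 1.74 ± 0.571% in AL (SD, n = 3 each). Every F library lay below every CR and AL library, and CR and AL overlapped. At 6 h the shares were 1.18, 0.812 and 2.35% in CR, 0.983, 0.987 and 1.11% in F and 1.18 and 2.05% in AL. The F libraries lay below both AL libraries there, while CR spanned F and AL. At 22 h the shares were 1.42, 1.73, 2.00 and 2.63% in CR, 1.11, 0.959 and 1.97% in F and 2.24, 1.62 and 2.00% in AL, so that 1 F library lay among the AL libraries. At 0 h CR had 1.56 and 1.46% and AL 1.15, 1.60 and 1.53%. At ZT18 the shares were 1.91, 1.79 and 2.43% in CRmm and 1.93, 1.52 and 2.64% in CRfed, and the groups overlapped.

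**Figure D1:**
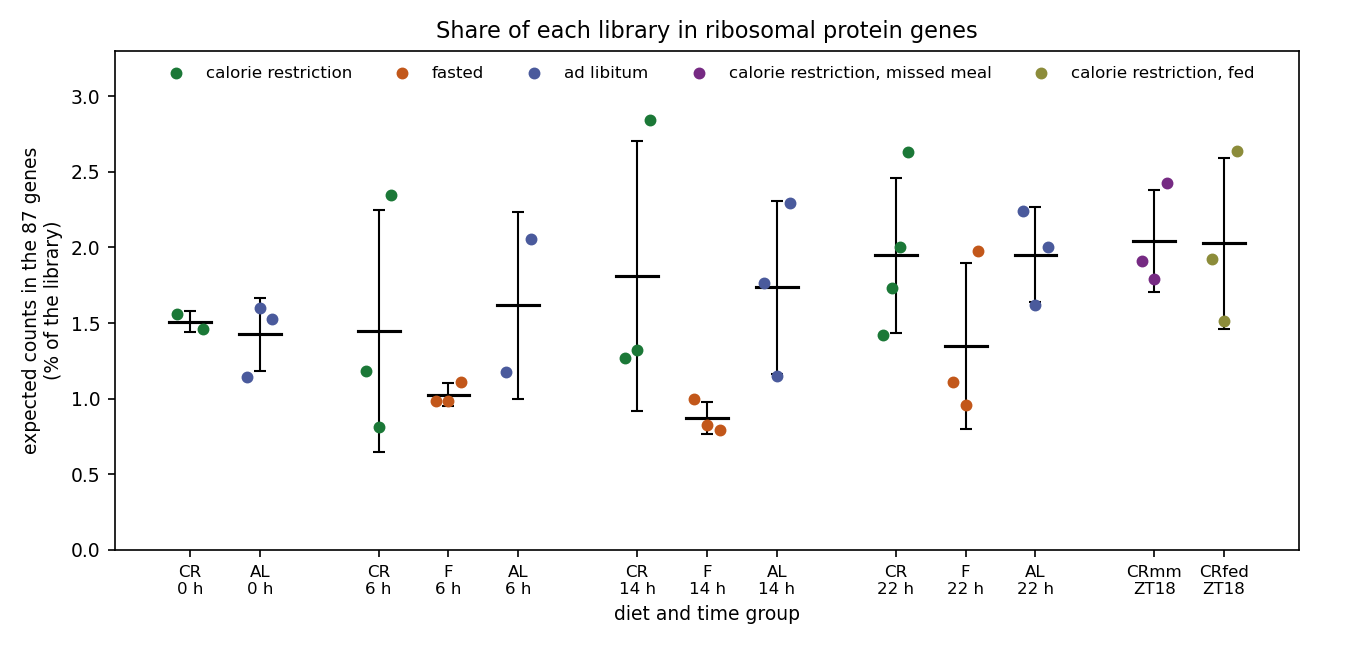
Share of each library's expected counts in the 87 ribosomal protein genes (%, vertical axis) by diet and time group (horizontal axis), with points for libraries, lines for group means and bars for SD. The 3 F libraries at 14 h sit between 0.795 and 0.995%, below every CR and AL library of that time.

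The genes moved together from library to library. Over the 38 libraries, the log2 CPM of the 77 subunit and stalk genes had a median Pearson r of 0.954 with the median of the other such genes, and r was above 0.8 for 72 of them. These points share library and depth, so the values are a description. Rps12 (0.326), Rpl27 (0.586) and Rpl4 (0.681) had the lowest r. For Rps12, Rpl27 and Rpl10, a -ps copy in the table took a similar or larger number of reads (on average 2127 counts per library for the copy of Rps12 against 2139 for Rps12, 2593 against 320 for Rpl27 and 8760 against 2660 for Rpl10), so the values of these 3 genes are uncertain. Of the 77 genes, 72 had their lowest group mean in F at 14 h and the other 5 in F at 6 h. The highest group mean was in CRmm for 50, in CRfed for 16, in AL at 14 h for 6 and in CR at 22 h for 5. No share of all genes is given beside these counts, so they do not show that this order is particular to these genes.

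**Figure D2:**
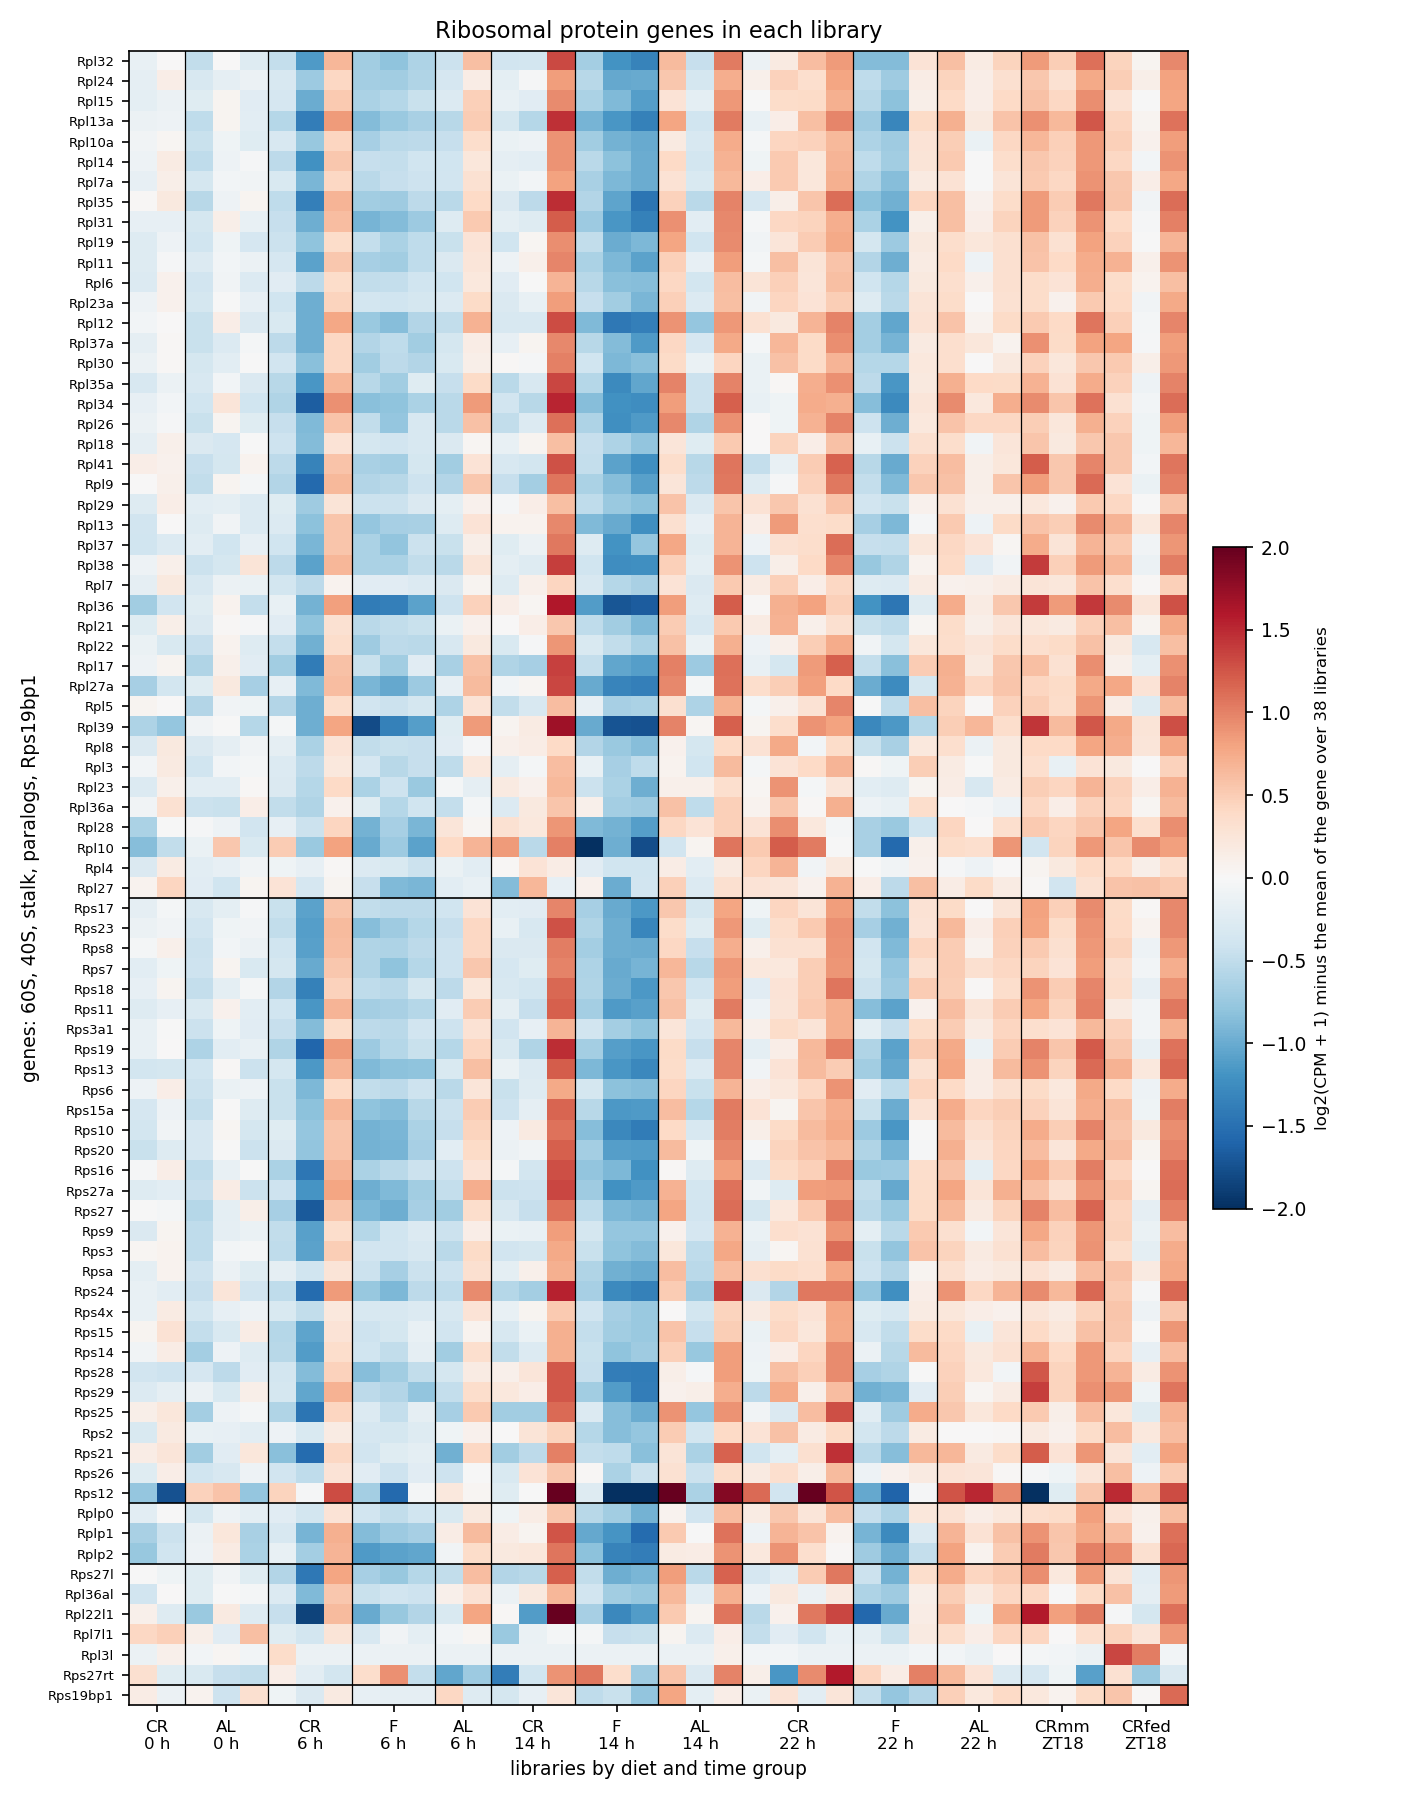
Log2(CPM + 1) of the tested genes, each minus its mean over the 38 libraries (colour), some genes left out, with genes in rows by class and libraries in columns by group. Blue columns run through nearly all rows in F at 14 h, and single red columns mark libraries such as CR at 14 h replicate 3.

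Fasted and ad libitum livers were compared first, at 14 h. Ribosomal protein mRNAs were lower in F: 69 of the 84 tested genes fell and none rose, against 12.7% of all 13786 tested genes called lower and 11.8% called higher (edgeR quasi-likelihood test with Benjamini-Hochberg adjustment at 0.05). The median log2 fold change was -1.25 over the 84 genes and -0.04 over all genes tested, and the 84 values ran between -3.37 and -0.13. Both ends belong to paralogs that did not pass, Rpl3l (-3.37 ± 2.44 SE), which had very few counts, and Rps27rt (-0.13 ± 0.67). By subunit, 37 of 43 large-subunit genes (median log2 fold change -1.23), 25 of 31 small-subunit genes (-1.30) and all 3 stalk genes (-1.63) fell. In 65 of the 84 genes every F library lay below every AL library, against 19.4% of all genes tested.

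The 5 genes with the smallest p were Rpl28, Rpl27a, Rpl39, Rpl36 and Rplp2. Rpl28, a large-subunit protein, had 84.8, 81.1 and 73.0 CPM in F and 211, 191 and 220 CPM in AL. The libraries of each group lay close together and the groups did not overlap (log2 fold change -1.38 ± 0.23 SE, edgeR adjusted p = 0.000129). Rpl39, a small protein that lines the tunnel through which the new peptide leaves the ribosome, had 13.5, 7.84 and 7.80 CPM in F and 57.5, 29.1 and 66.2 CPM in AL. All F libraries were below the lowest AL library (-2.39 ± 0.44, edgeR adjusted p = 0.000302). Rpl27a, another large-subunit protein, had 92.2, 73.7 and 70.9 CPM in F and 361, 181 and 393 CPM in AL, again with no overlap (-1.98 ± 0.36, edgeR adjusted p = 0.000246). Rpl36, also of the large subunit, had 38.3, 24.9 and 25.7 CPM in F and 150, 70.5 and 196 CPM in AL. AL replicate 2 was the lowest AL library in Rpl39, Rpl27a and Rpl36, and still above all F libraries (Rpl36 log2 fold change -2.23 ± 0.43, edgeR adjusted p = 0.000477).

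The stalk recruits translation factors to the ribosome. Rplp2 had 48.4, 33.7 and 32.5 CPM in F and 97.4, 95.8 and 163 CPM in AL, with no overlap (-1.63 ± 0.32, edgeR adjusted p = 0.000489). Rplp1 had 97.5, 87.4 and 68.3 CPM in F and 287, 199 and 423 CPM in AL, and Rplp0, which anchors both to the subunit, 309, 280 and 235 CPM in F and 476, 346 and 695 CPM in AL. Both fell without overlap, Rplp0 by less (log2 fold change -1.84 for Rplp1 and -0.88 for Rplp0, edgeR adjusted p = 0.000571 and 0.00790).

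Among genes with a role of their own, Rps6, the substrate of the S6 kinases downstream of mTORC1, had 284, 204 and 200 CPM in F and 486, 265 and 579 CPM in AL. It fell with an overlap, since 1 AL library lay below the highest F library (-0.95 ± 0.33, edgeR adjusted p = 0.0340). Rps27a, made as a fusion with ubiquitin, had 94.9, 66.6 and 70.7 CPM in F and 253, 120 and 330 CPM in AL and fell without overlap (-1.60 ± 0.47, edgeR adjusted p = 0.0136). Of the MDM2-binding proteins, Rpl11 fell (-1.30 ± 0.33, edgeR adjusted p = 0.00444), while Rpl5 did not pass the test (-0.71 ± 0.35, edgeR adjusted p = 0.146), with 258, 182 and 185 CPM in F and 362, 188 and 472 CPM in AL. Rpsa, Rpl13a, Rps19 and Rpl10 fell, and Rps3 and Rps14 did not pass. A total of 15 genes did not pass, among them 1 of the 3 most abundant genes, Rps26, with 190, 120 and 137 CPM in F and 230, 138 and 240 CPM in AL (-0.44 ± 0.24, edgeR adjusted p = 0.183). Its groups overlapped. Rps2, the most abundant, had 483, 394 and 416 CPM in F and 1022, 554 and 942 CPM in AL, without overlap, and fell (-0.96 ± 0.21, edgeR adjusted p = 0.00119).

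**Figure D3:**
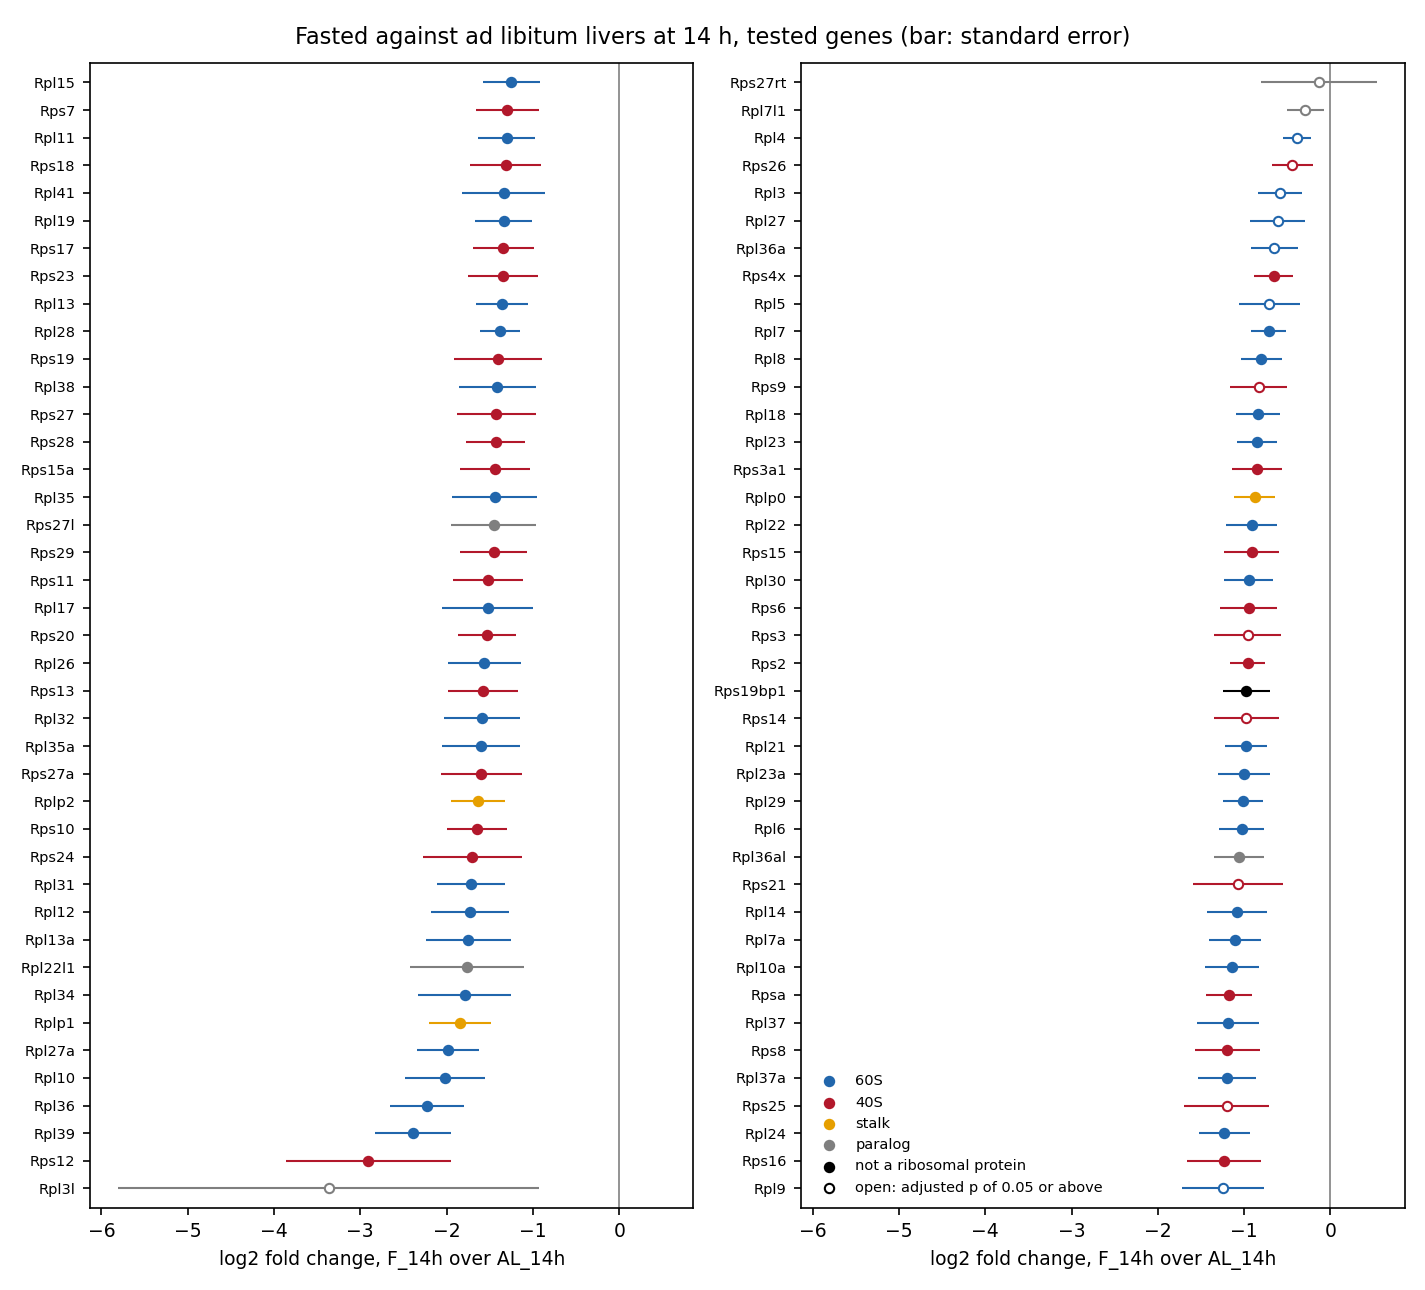
Log2 fold change of F over AL at 14 h for the tested genes, some left out (horizontal axis; bars are standard errors), coloured by class, with filled points for genes that passed and open points for genes that did not. All points lie below 0.

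Transcript length moved with these values. Ribosomal protein mRNAs are short: the median transcript length was 638.25 bases over the tested members and 1652.5 over all genes tested, and 7.1% of the other genes were shorter than the member median. The length that RSEM used to turn counts into TPM, read from the ratio of both deposited values, set them further apart, with 2.4% of the other genes shorter. Over the genes that are not members, the log2 fold change of F over AL at 14 h had a Spearman rho of 0.23 with transcript length and 0.445 with the implied effective length, so that shorter genes were lower in F. When a smooth trend with transcript length, estimated in each library from the other genes, was taken out, 53 genes were called lower, against 10.6% of all genes in that fit, and the median was -0.999. When the trend with the implied length was taken out, the median was -0.37, 12 genes were called lower and 1 was called higher (edgeR quasi-likelihood test with Benjamini-Hochberg adjustment). In that fit 7.47% of all genes were called lower and 7.52% higher. The 13 calls are 15.5% of the members, against 15% of all genes called in either direction. The number of calls in both directions together is thus near the background once this trend is taken out. The directions were not even: 12 of the 13 calls were lower, and 69 of the 84 values were below 0 and 15 above. Over all genes the median in that fit was -0.003. At the members' lengths the trend itself was -0.83 on the log2 scale. How far a length effect of the libraries made up the difference was not tested.

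With calls in both directions together near the background rate, the genes that passed in that fit are given as a description of single genes. The 12 called lower were Rpl12, Rpl13, Rpl27a, Rpl28, Rpl31, Rpl36, Rpl39, Rplp1, Rplp2, Rps10, Rps20 and Rpsa. All were among the 69 called before the trend was taken out. Rpl27a and Rpl39 had the lowest values of the 5 named genes (both -1.38, edgeR adjusted p = 0.000386 and 0.000285), followed by Rpl36 (-0.89), Rplp2 (-0.84) and Rpl28 (-0.76). Rps26 was the 1 gene called higher (0.75, edgeR adjusted p = 0.0210). Rplp0, Rps6 and Rps27a no longer passed (-0.41, -0.17 and -0.63).

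The same relation was seen between libraries. The median deviation of the 84 genes from their mean over all libraries had a Pearson r of -0.858 and a Spearman rho of -0.888 with the rho of the other genes' deviations against implied length (38 libraries). With the 2 farthest libraries left out r was -0.835, and with group means taken off both measures -0.790. Both axes come from the same libraries, so this is a description. The members' median minus the implied-length trend was -0.23, -0.53 and -0.47 in F at 14 h and 0.02, -0.29 and 0.09 in AL, where 1 AL library lay below the highest F library. Minus the transcript-length trend it was -0.47, -0.87 and -0.90 in F and 0.39, -0.34 and 0.63 in AL, without overlap.

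**Figure D4:**
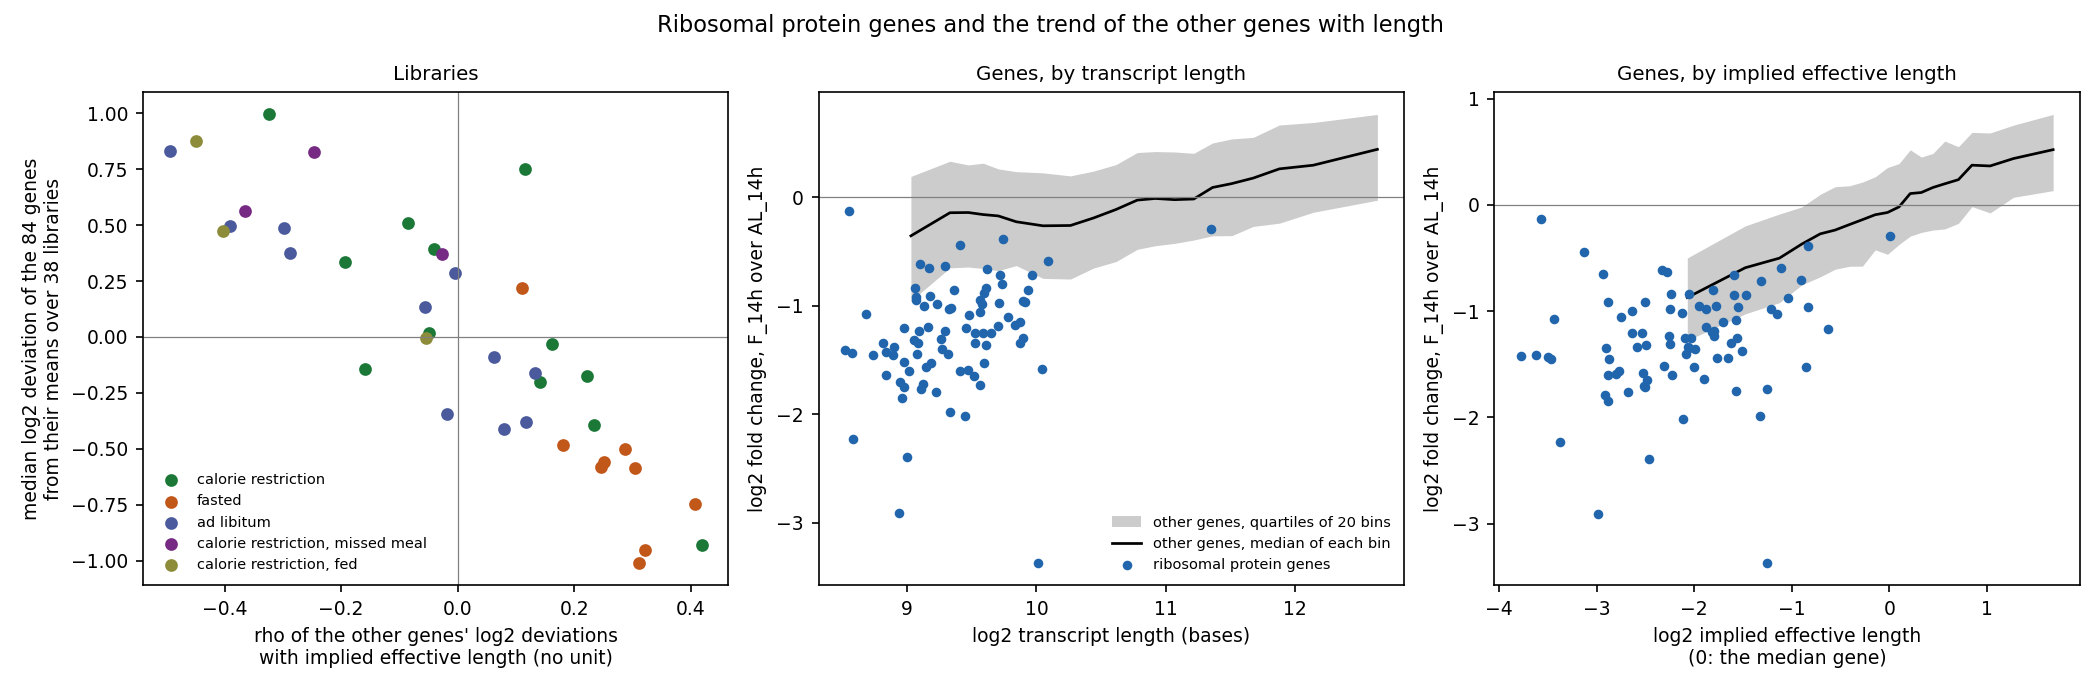
Left, median log2 deviation of the 84 genes in each library (vertical axis) against the Spearman rho of all other genes' deviations with implied effective length (horizontal axis); middle and right, log2 fold change of F over AL at 14 h against length on a log2 scale for the ribosomal protein genes and, in bins of equal size, all other genes. Libraries with a higher rho have lower ribosomal protein levels (Pearson r -0.858), and the members lie at the short end and below most bins.

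Single libraries weighed on the 14 h count. It was 26 without AL replicate 3, 45 without F replicate 2, 37 without F replicate 3 and 44 when scaled to library totals (8.34% of all genes called lower in that fit), and 23 of the 69 genes were called in each fit that left out 1 library, the 5 named ones included. No share of all genes is given for fits that left out a library, here or below, so their counts are not set against a background. Endothelial markers moved with the comparison. The 5 markers summed to between 105 and 146 CPM in CR, 154 and 185 CPM in F and 39.7 and 107 CPM in AL. Of the 5, 4 were called higher in F than in AL, against 11.8% of all genes, and none was at 0 in a whole group. Of other markers, 1 of 6 Kupffer cell and 1 of 5 stellate markers were called higher. Among 6 lymphocyte markers 1 was called lower, against 12.7% of all genes. The part of these markers in the result was not tested.

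At 6 and 22 h fewer genes passed. At 6 h, 3 genes fell in F, against 1.13% of all genes: Rpl39 (log2 fold change -1.89 ± 0.46, edgeR adjusted p = 0.0218), Rpl28 (-0.99 ± 0.25, 0.0301) and Rplp2 (-1.26 ± 0.34, 0.0392). Rpl28 had 81.8, 98.8 and 83.6 CPM in F and 186 and 163 CPM in AL. Rpl39 had 7.50, 10.4 and 12.7 CPM in F and 23.8 and 52.0 CPM in AL, so both genes were lower in each F library. The median over the 84 genes was -0.52, against -0.02 over all genes, and 53 genes were lower without overlap, against 18.8% of all genes. Without AL replicate 2 the median was -0.17 and no gene was called. None was called without F replicate 1 or 2 either, and 1 without AL replicate 1 or F replicate 3. After removal of the implied-length trend, Rpl27a, Rpl36, Rplp1 and the 3 named genes were called lower and the median was -0.22. These 6 are 7.14% of the members, against 1.45% of all genes called lower and 2.97% called in either direction in the same fit.

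At 22 h, 8 genes fell in F, against 5.4% of all genes, with a median of -0.58 over the 84 genes and -0.03 over all genes. They were Rps19bp1, Rpl27a, Rplp2, Rpl28, Rpl39, Rplp1, Rpl36 and Rps10. Rps19bp1, the gene that is not part of the ribosome, had 6.73, 5.24 and 6.16 CPM in F and 13.8, 11.4 and 13.2 CPM in AL (-1.08 ± 0.27, edgeR adjusted p = 0.00945). Rpl28 had 99.9, 94.1 and 120 CPM in F and 213, 159 and 199 CPM in AL, and Rpl39 had 11.0, 12.2 and 18.6 CPM in F and 40.1, 45.3 and 36.4 CPM in AL. No F library reached AL in any of these 3 genes. In all, 27 genes were lower without overlap, against 18.4% of all genes. F replicate 3 had the highest share of ribosomal protein counts of its group. Without it 15 genes were called with a median of -0.96, without F replicate 2 none, without F replicate 1 just 1, without AL replicate 1 a total of 3 and without AL replicate 3 a total of 5. With the implied-length trend taken out the median was -0.10, and Rpl27a, Rpl36, Rpl39, Rplp1 and Rplp2 were called lower and 2 genes, Rpl36a among them, higher. In the same fit 3.32% of all genes were called lower and 4.29% higher, and the 7.61% called in either direction is near the 8.33% of the members.

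The difference of the fasting effect between times was tested directly, and no member was called by edgeR or DESeq2, against 0.0653% of all genes (2 members had an unadjusted p under 0.05). A larger effect at 14 h than at 6 or 22 h was therefore not shown.

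Calorie-restricted livers were set against fasted livers of the same time. The F libraries are the same as in the comparison with AL, so the values below are not independent of those above. At 14 h, 58 genes rose in CR and none fell, against 9.1% of all genes called higher and 7.97% called lower, with a median log2 fold change of 1.13 and 65 genes higher without overlap (16.8% of all genes). By subunit, 34 large-subunit, 19 small-subunit and 3 stalk genes rose. Rpl28 had 194, 183 and 293 CPM in CR, against the 84.8, 81.1 and 73.0 CPM of F given above (1.49 ± 0.23, edgeR adjusted p = 6.68e-05). Rpl39 had 29.6, 31.7 and 93.6 CPM in CR, against 13.5, 7.84 and 7.80 CPM in F (2.41 ± 0.44, edgeR adjusted p = 0.000385). In both, CR replicate 3 was well above the other CR libraries, which were themselves above all F libraries. The same was seen in Rpl36 with 92.5, 86.7 and 258 CPM in CR (2.30 ± 0.43), in Rpl27a with 179, 191 and 471 CPM (1.83 ± 0.35) and in Rplp2 with 99.7, 102 and 182 CPM (1.74 ± 0.32).

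The count at 14 h was 16 without CR replicate 3, 33 without F replicate 2 and 29 without F replicate 3, and 16 genes were called in each fit that left out 1 library. With the implied-length trend taken out, 31 genes were called higher (36.9% of the members), all among the 58, and the median was 0.53. In that fit 7.01% of all genes were called higher and 13.3% in either direction. At 6 h, 4 of the 84 genes rose in CR: Rplp2 (1.16, edgeR adjusted p = 0.0202), Rpl39 (1.57, 0.0217), Rpl28 (0.83, 0.0241) and Rpl36 (1.38, 0.0398). This share is not far above the 3.39% of all genes called higher. Of the 84 genes, 9 were higher without overlap, a smaller share than the 13.7% of all genes. The median was 0.41, and -0.08 without CR replicate 3. None was called without CR replicate 3 or F replicate 1, 1 without F replicate 2 or 3 and 2 without CR replicate 1. A total of 9 were called higher with the implied-length trend taken out (10.7% of the members), against 4.58% of all genes called higher and 8.89% in either direction. At 22 h, 10 genes rose in CR, against 5.13% of all genes, led by Rpl28 (0.99 ± 0.22, edgeR adjusted p = 0.00390), which had 191, 301, 184 and 153 CPM in CR and 99.9, 94.1 and 120 CPM in F. In 16 genes the CR libraries lay above all F libraries, against 8.94% of all genes. The count was 29 without F replicate 3, 1 without F replicate 1 or 2 and 3 without CR replicate 2, and Rpl28 alone was called in each fit that left out 1 library. The median was 0.68. After the removal 12 were called higher (14.3% of the members), 8 of them among the 10, against 5.36% of all genes called higher and 10% in either direction.

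In calorie-restricted against ad libitum livers, no ribosomal protein gene was called by edgeR at 0, 6, 14 or 22 h, against 0.479, 0, 0.0218 and 4.88% of all genes called in either direction, and members with an unadjusted p under 0.05 numbered 0, 0, 0 and 2. DESeq2 called 0, 0, 0 and 1. The medians were 0.15, -0.16, -0.08 and 0.09 at these times. With the implied-length trend taken out, 7 genes were called higher in CR at 22 h (Rpl29, Rpl37a, Rpl38, Rpl4, Rps2, Rps28 and Rps4x), and none at the other times. These are 8.33% of the members, against 3.33% of all genes called higher and 5.76% in either direction in that fit. The difference of the CR effect between times had no member called by edgeR or DESeq2, against 0.442% of all genes, and none with an unadjusted p under 0.05.

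Across the day within a diet, no member changed in AL or F, against 0.276 and 2.86% of all genes, with 1 and 3 members at an unadjusted p under 0.05 and none called by DESeq2. In CR, 2 members changed, against 20.6% of all genes. Rpl7l1, a paralog of Rpl7, had 85.6 and 90.1 CPM at 0 h, 54.1, 49.6 and 76.6 CPM at 6 h, 37.9, 58.2 and 62.2 CPM at 14 h and 45.7, 54.8, 48.2 and 58.0 CPM at 22 h (edgeR adjusted p = 0.0449). Rpl7l1 was higher in both libraries at 0 h than at any later time. Without CR at 6 h replicate 3, 25 members were called, and without CR at 6 h replicate 1 or CR at 22 h replicate 2 none was. Just 1 was called without CR at 6 h replicate 2 or CR at 22 h replicate 1. No share of all genes is given for these fits, so the counts are not set against a background. With all libraries that share was 20.6%.

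After the missed meal, 1 of the 84 genes, Rpl3l, was called lower in CRmm than in CRfed and none higher, against 6.13% of all genes called lower and 6.34% called higher. The median was 0.13. Rpl3l, the muscle paralog of Rpl3, had 0.055, 0.046 and 0 CPM in CRmm and 1.725, 1.203 and 0.046 CPM in CRfed (edgeR adjusted p = 0.0361). It was near 0 in nearly all other libraries, with 105 expected counts over 38 libraries, and the difference lay in 2 CRfed libraries. Rpl3l passed the filter on low counts through these libraries, so it was tested against the group where it was high and the call is a description. It was not in the fit without CRfed replicate 1 or 2 or when only these libraries were fitted, and the call was lost without any 1 CRmm library, with DESeq2 and with no filter. Markers of other cells differed in this comparison. The 4 erythroid markers summed to between 2243 and 7285 CPM in CRmm and between 349 and 918 CPM in CRfed, with 3 called higher and 0 lower. Of 5 endothelial markers, 2 were called higher and 0 lower. The part of these markers in the member values was not tested.

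Paralogs were compared with their partners as a log2 ratio of CPM in each library. Of 5 ratios in 11 pairs of groups, 55 exact two-sided permutation tests gave no adjusted p below 0.55, and the smallest p that 3 against 3 libraries allow is 0.1. The values themselves separated some groups. Rpl7l1 relative to Rpl7 was -3.04 ± 0.08 in CR at 22 h (n = 4), -2.45 ± 0.13 in F and -2.23 ± 0.13 in AL (SD, n = 3 each). Rpl36al relative to Rpl36a was -0.02 ± 0.19 in CR, -0.17 ± 0.19 in F and 0.68 ± 0.17 in AL at the same time. In both ratios the CR and AL libraries did not overlap (exact two-sided permutation p = 0.0571, the smallest that 4 against 3 libraries allow). At 14 h, Rpl22l1 relative to Rpl22 was -3.17 ± 0.27 in F and -2.32 ± 0.22 in AL. Of the genes themselves at 14 h, Rpl22l1, Rpl36al and Rps27l fell in F (-1.76, -1.06 and -1.45), while Rpl7l1 and Rps27rt had -0.29 and -0.13 (edgeR adjusted p = 0.348 and 0.915). Reads of close paralogs can be shared between them.

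**Figure D5:**
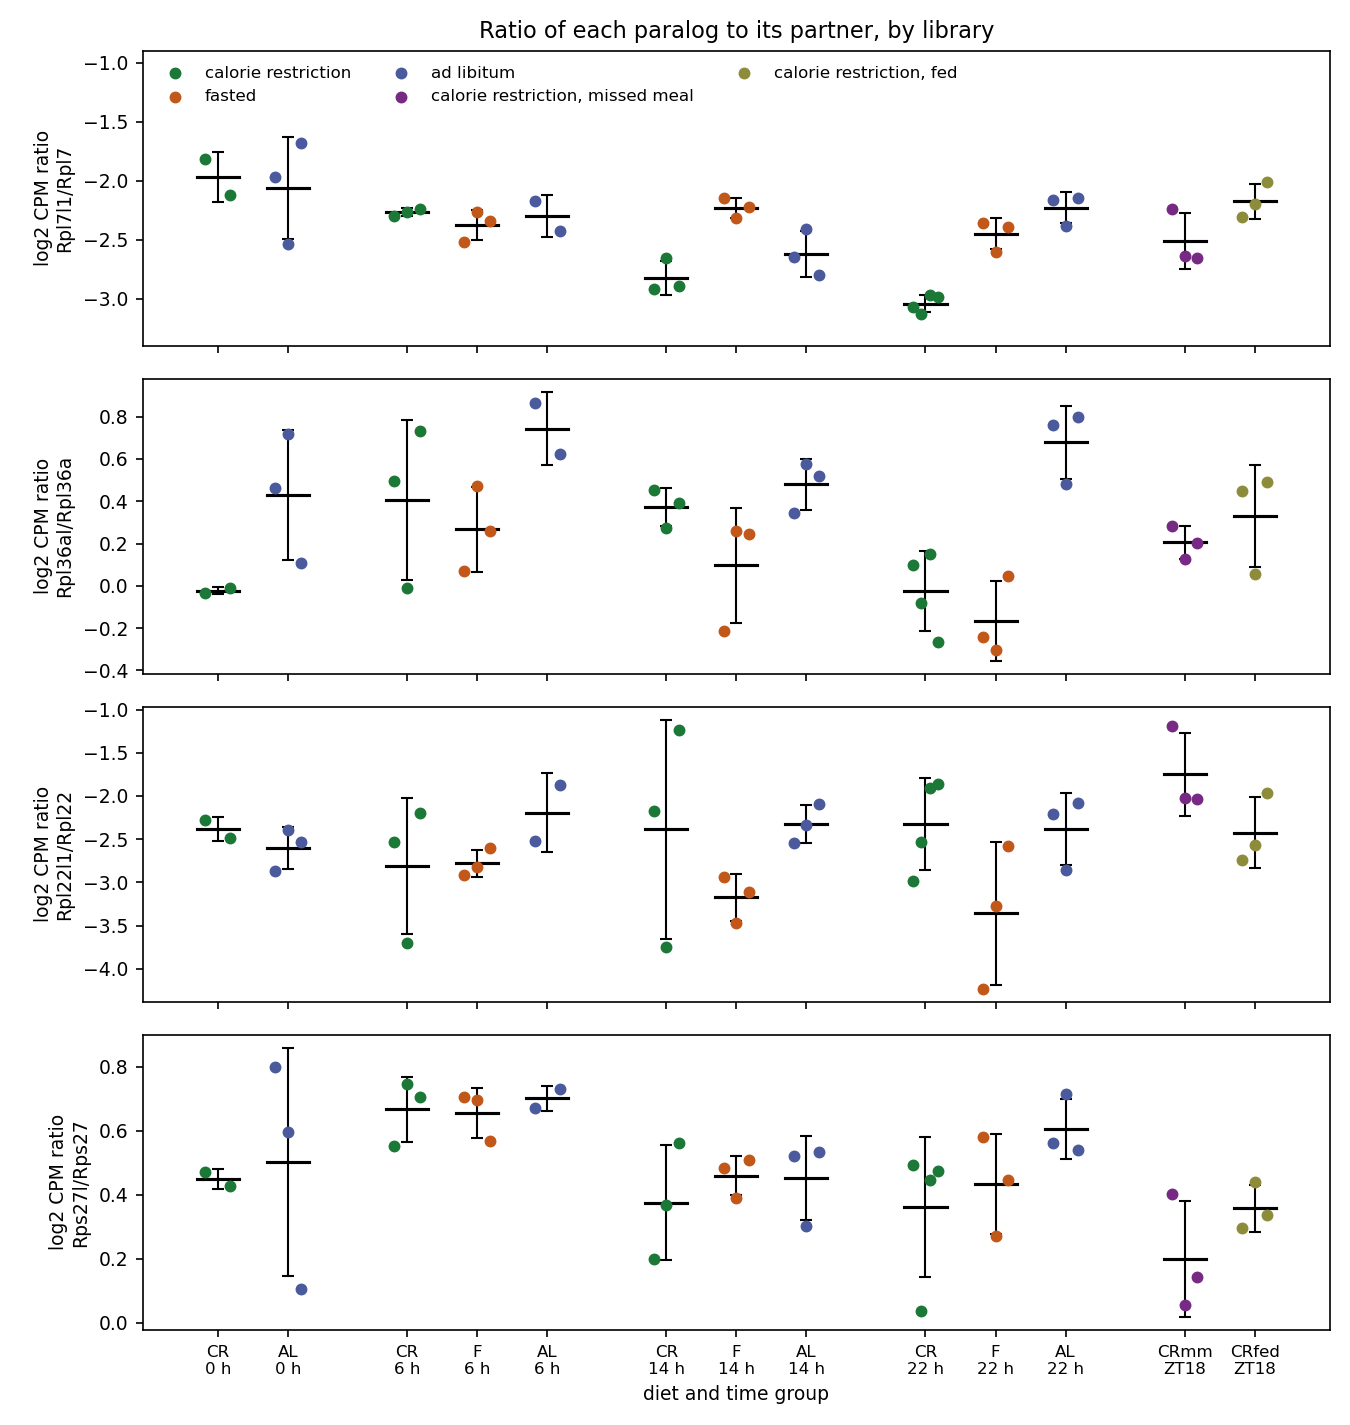
Log2 CPM ratio of each paralog to its partner (vertical axes) by diet and time group (horizontal axis), with points for libraries, lines for means and bars for SD. Rpl7l1 over Rpl7 is lowest in CR at 22 h (-3.04), and Rpl36al over Rpl36a is higher in AL than in CR and F at that time.

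Related genes were counted in the same fits. Of 18 other genes with TOP mRNAs, 8 fell and 2 rose in F against AL at 14 h, against 12.7% of all genes called lower and 11.8% higher, with a median of -0.51. Fau, whose product is a ribosomal protein fused to a ubiquitin-like protein, was among those that fell (-1.09, edgeR adjusted p = 0.00580), as was Tpt1 (-0.99, edgeR adjusted p = 0.00713). Hnrnpa1 and Nap1l1 rose (0.68 and 0.57). Of 17 genes of the mTORC1 and LARP1 axis, 4 rose and none fell (median 0.36), in a comparison where 11.8% of all genes rose. Among the 4 were Mtor, the kinase (0.93, edgeR adjusted p = 0.00365), its partner Rptor (0.74) and Sesn2, a stress-induced inhibitor of the pathway (0.81). These transcripts are long (median 2600 bases), and those of the TOP genes short (844.25).

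Other groups with short transcripts were counted at 14 h, where 12.7% of all genes were called lower and 11.8% higher. Of 78 mitochondrial ribosomal protein genes, 38 fell and none rose (median -0.63), of 81 nuclear genes for oxidative phosphorylation subunits 36 fell and 2 rose (-0.75), and of 38 proteasome subunit genes 7 fell and 5 rose (-0.16). With the implied-length trend taken out the medians were -0.02, 0.11 and 0.36 in these 3 lists, 0.04 in the TOP list, 0.09 in the mTORC1 and LARP1 list and -0.37 in the ribosomal protein genes. In CR against F at 14 h, which shares the F libraries, the list medians with the trend taken out were 0.05, 0.07 and -0.25 in the same order, 0.13 in the TOP list, 0.08 in the mTORC1 and LARP1 list and 0.53 in the ribosomal protein genes.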

How the data were processed

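Per the labels' protocols, polyadenylated RNA of 30 mg of liver was made into non-directional libraries and sequenced as 150 bp pairs, and the authors mapped reads with Bowtie (at most 2 mismatches) to Ensembl GRCm38 protein-coding genes and estimated expected counts with RSEM 1.2.3. The second deposited table is a signal, TPM that the authors rescaled with EBSeq against a possible batch effect, with no batch named per the labels. Rescaled TPM served for levels between genes and for the implied length, which is the median over libraries of expected count over rescaled TPM, known up to a factor.

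Expected counts of 38 libraries were rounded and fitted in 1 model with 13 groups in edgeR 4.0.16 (R 4.3.3), after filterByExpr (13786 genes) and TMM scaling, with the quasi-likelihood F test and Benjamini-Hochberg adjustment within each comparison (threshold 0.05, common dispersion 0.0785). Standard errors are the absolute fold change over the square root of F. Tests covered 11 pairs of groups, change over time in each diet and 2 interactions. Length trends were lowess curves (span 0.3) per library over genes that are not members, used as offsets. GENCODE vM21 gave transcript lengths. The steps were tested on simulated data.

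Named with values were up to 5 members of smallest p per comparison and direction, paralogs with partners, members with a known role, and the 3 highest and lowest by rescaled TPM; cases outside this rule (Rpl4, Rps12, Rpl27 and short lists of called genes) were named after their values were seen. The members and lists were chosen with earlier results of these data known. Alternatives were DESeq2 1.42.0, library-total scaling, other filters, a replicate block, fitting only the compared libraries, length removal and leaving out each library. Removal of the implied-length trend and leaving out doubted libraries were chosen after seeing the data. Totals of 17131292 to 30152277 counts per library set the depth, and no molecular identifiers were used. A few tested genes, included in all counts and medians, are not reported here by name.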

Additional observations from a re-analysis of the deposited data

Results flagged for a closer look

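Among 36 values examined in groups of 4 or more libraries, 2 had 1 library far from the others, and chance alone does so in about 1 of 20 groups. Rpsa, the small-subunit protein also known as laminin receptor precursor, had 645, 676, 649 and 879 CPM in CR at 22 h, where the highest library (878.5 CPM) stood apart. Rpl10l, the testis paralog of Rpl10, had its highest library of that group at 0.03302 CPM and the others at 0, which is 1 count.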

How the results depend on the processing

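The median kept its sign in all settings run in F against AL at 6, 14 and 22 h and in CR against F at 14 and 22 h, and no named gene that was called reversed. In CR against F at 6 h it was -0.08 without CR replicate 3. The cause of the changes below was not tested. No share of all genes is given for the fits that leave out libraries, hold only the compared libraries or use no filter. Those counts are therefore not set against a background. Leaving out 1 library at a time gave 0 to 1 genes called in F against AL at 6 h, 26 to 79 at 14 h and 0 to 15 at 22 h, 0 to 1 in CR against AL at 22 h, 0 to 5, 16 to 67 and 1 to 29 in CR against F, 0 to 1 in CRmm against CRfed and 0 to 25 over time in CR. The medians in F against AL then ran between -0.81 and -0.17 at 6 h, between -1.51 and -1.001 at 14 h and between -0.96 and -0.36 at 22 h. Removal of the implied-length trend gave 6, 13 and 7 genes called and medians of -0.22, -0.37 and -0.10 in F against AL. These are 7.14, 15.5 and 8.33% of the members, against 2.97, 15 and 7.61% of all genes called in either direction. The share in both directions together was near the background at 14 and 22 h. At 14 h 12 of the 13 were lower, while 7.47% of all genes were called lower and 7.52% higher. The same removal gave 7 genes in CR against AL at 22 h, against 5.76% of all genes. It gave 9 and 31 in CR against F at 6 and 14 h (median 0.53 at 14 h), against 8.89 and 13.3% of all genes. Over time in CR it gave 7, against 23.0% of all genes, and removal of the transcript-length trend gave 5, against 20.7%. With implied in place of transcript length, rho was 0.194, 0.445 and 0.408 in F against AL, 0.235 and 0.231 in CR against AL at 6 and 14 h, and -0.359 and -0.261 in CR against F at 14 and 22 h. DESeq2 called 7 genes in F against AL at 6 h, 22 in CR against F at 22 h, 1 in CR against AL at 22 h, 0 after the missed meal and 6 over time in CR. Of all genes, DESeq2 called 4.08, 12.7, 8.01, 14.5 and 24.6% in these tests. Fitting only the compared libraries gave 11 in F against AL at 6 h, 0, 34 and 2 in CR against F, 0 after the missed meal and 0 over time in CR. Scaling to library totals gave 44 in F against AL at 14 h, 1 in CR against AL and 5 in CR against F at 22 h and 1 over time in CR. Of all genes, 24.0, 5.62, 9.90 and 20.5% were called in these tests. This scaling moved the median of all genes in F against AL at 14 h to 0.09, with 2165 genes higher and 1150 lower against 1627 and 1747. With no filter, 0 were called after the missed meal and 1 over time in CR. Without the 4 libraries that cluster apart, 2 were called in CR against AL at 22 h, 0, 20 and 24 in CR against F and 34 over time in CR. Without all 6 doubted libraries the counts were 13 in F against AL at 22 h, 1 in CR against AL at 22 h, 0, 18 and 25 in CR against F and 32 over time in CR, and the CR against AL median at 0 h was 0.30. The replicate block gave 11 and 17 genes in F against AL at 6 and 22 h and 1 in CR against AL at 22 h, against 4.21, 14.9 and 3.71% of all genes. The block moved no other count by over 1.5 times. Replicate numbers are not stated to pair the samples: of 30 same-numbered pairs, 8 had a correlation of deviations above 0.1 and 4 below -0.1, and in 1 of 8 comparisons each sample correlated best with its own number.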
